A study of Mus musculus with 66 samples.

Results

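The comparison covered 6 of the 66 lung samples of the series: the 3 wild-type samples of postnatal day 4 (PND4) and the 3 of postnatal day 1 (PND1), chosen by their titles. Both groups were Nrf2+/+ mice. Nrf2-/- mice of the same days, which lack the transcription factor Nrf2, served as a second pair of groups with 3 samples each. Dams and pups of all these groups were fed the AIN-76A diet. Each sample was total RNA from 1 homogenized whole lung, measured on 1 one-colour Affymetrix array, so every value is an average over all the cell types of the organ. A loss of cells of a type and a loss of RNA per cell cannot be told apart in such samples.

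Between these days the newborn mouse lung passes from the saccular stage, when breathing relies on wide thin-walled sacs, to the alveolar stage, when new septa grow from the sac walls. Septation involves renewed cell division, alveolar myofibroblasts that lay down elastin at the tips of the septa, a capillary bed that is remodelled with them, and flat type 1 and surfactant-making type 2 epithelial cells that line them. In the same days the lung finishes the switch from secreting fluid to absorbing it, which glucocorticoids and the epithelial sodium channel are known to drive.

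All values below are log2(signal + 16) after quantile normalization, and a difference is PND4 minus PND1 on that scale, given with its standard error (SE), n = 3 per group. The added constant makes differences of dim genes smaller than they were in the signal. "Rose" and "fell" are kept for genes with an adjusted p under 0.05 in a limma model fitted to all 66 arrays. The 6 arrays belonged to the same set of 24 arrays (PND1 to PND4 of both genotypes), whose deposited signals lacked the common trimmed mean of the other arrays. Their 2% trimmed mean signals lay between 204.28 and 268.73 at PND4 and between 214.52 and 252.04 at PND1. Gapdh control probes gave a 3' to 5' ratio of 0.773 to 0.84 at PND4 and 0.81 to 0.84 at PND1. Arrays correlated at 0.9645 to 0.976 within PND4, at 0.9668 to 0.9748 within PND1 and at 0.9545 to 0.9638 between the days. Xist was high in 1 of 3 samples at PND4 and in 2 of 3 at PND1, so the sexes were mixed in both groups. Lung markers were bright throughout: surfactant protein gene Sftpc lay between 14.57 and 14.71 at PND4 and between 14.47 and 14.72 at PND1, and the type 1 cell marker Ager between 14.37 and 14.47 at PND4 and between 14.72 and 14.73 at PND1. Nfe2l2, which encodes Nrf2, lay between 11.45 and 11.55 in wild-type PND4 arrays and between 10.92 and 11.65 in wild-type PND1 arrays. In the Nrf2-/- arrays it lay between 4.71 and 5.56 at PND4 and between 4.57 and 5.11 at PND1. A dimmer second probe set of the gene did not follow this pattern, at 5.42 to 6.12 in wild-type PND4 arrays, 8.29 to 9.72 in wild-type PND1 arrays, 6.04 to 6.14 in Nrf2-/- PND4 arrays and 6.58 to 7.80 in Nrf2-/- PND1 arrays.

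Genes typical of liver, heart muscle, skeletal muscle and brown fat differed widely between samples of the same day. Their source was not tested. The mean of the 7 liver genes was 4.94, 5.18 and 12.55 in the PND4 samples (replicates 1, 2 and 3), against 6.80, 12.37 and 8.54 in the PND1 samples. The liver protein albumin (Alb) stood at 6.26, 6.76 and 14.34 at PND4, against 8.58, 14.26 and 10.95 at PND1. The mean of the 10 heart muscle genes was 10.06, 10.59 and 12.47 at PND4, against 12.62, 10.66 and 10.93 at PND1. The 8 skeletal muscle genes averaged 6.089, 6.782 and 7.305 at PND4, against 6.814, 6.228 and 9.616 at PND1, highest in PND1 replicate 3. The 5 brown fat genes averaged 9.27, 6.99 and 8.17 at PND4, against 6.35, 5.68 and 6.02 at PND1. Liver genes were thus high in 1 sample of each day, heart genes highest in PND4 replicate 3 and PND1 replicate 1, and brown fat genes higher in the 3 PND4 samples than in the 3 PND1 samples.

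Over these days wild-type lung gained transcripts of the cell division machinery, of growth factors such as Igf1 and midkine, and of some contractile genes of the mesenchyme. It lost transcripts of part of the glucocorticoid-responsive, clock, sodium and water transport, hypoxia response and neutrophil granule genes. Of the type 2 and type 1 cell genes, 12 of 15 and 11 of 14 were lower without overlap, against 15.9% of all genes. In each of these lists 3 genes passed. Of 45037 probe sets, 4406 (9.78%) passed, 2264 higher (5.03%) and 2142 lower (4.76%) at PND4. With the array medians subtracted instead, the split was 1106 higher and 1610 lower. With 1 probe set for each of 18193 genes, 2428 genes (13.3%) passed, of which 1326 (7.29% of all genes) rose and 1102 (6.06%) fell. The median difference over all genes was 0.004. Changes of 4-fold or more were found in 101 genes that rose and in 11 that fell, so the largest changes were mostly gains. These shares of all genes are the background against which each group below is to be read.

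**Figure D1:**
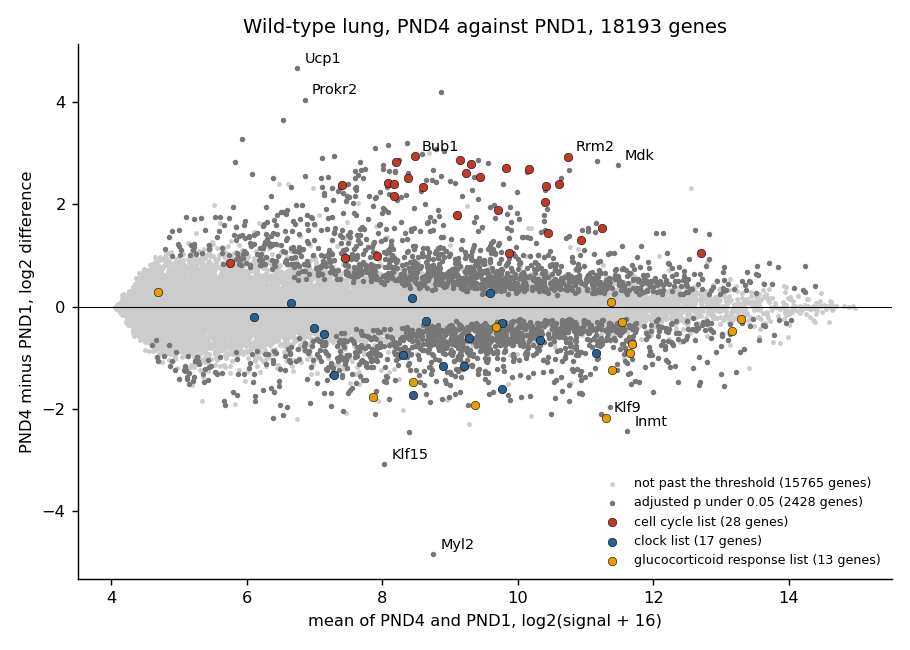
Difference between PND4 and PND1 in wild-type lung (log2, vertical axis) against the mean of both days (log2(signal + 16), horizontal axis), 1 point per gene. The 28 cell cycle genes lie above 0, and most of the clock and glucocorticoid response genes lie below it.

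The strongest shared gain was in the cell cycle. Of 28 measured cell cycle genes, 26 rose and 0 fell, with a median difference of 2.37, against 7.29% of all genes that rose and a median of 0.004. In all 28 the 3 PND4 values lay above the 3 PND1 values, a separation that 17.0% of all genes showed. The same 26 genes passed in each of the 6 fits that left out 1 array and under each of 4 other scalings. The genes spanned the division cycle, and the mitotic genes described next gained more than the helicase genes that follow them.

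Cdk1, the kinase that starts mitosis, stood at 11.18, 11.19 and 11.18 at PND4, against 8.31, 8.55 and 8.53 at PND1. The groups lay far apart, and the rise was 6.58-fold (2.72 ± 0.30, limma adjusted p = 7.41e-09). Bub1, a kinase of the spindle checkpoint, stood at 10.08, 9.94 and 9.81 at PND4, against 6.90, 7.30 and 6.83 at PND1, a 7.66-fold rise (2.94 ± 0.37). Other mitotic genes moved by similar amounts. Top2a, which untangles DNA, rose by 2.69, the cyclin Ccnb2 by 2.78, the survivin gene Birc5 by 2.86, the kinases Aurka and Aurkb by 2.40 and 2.83, and the proliferation marker Mki67 by 2.36. Rrm2, the subunit of ribonucleotide reductase made for DNA synthesis, stood at 12.22, 12.30 and 12.10 at PND4, against 9.27, 9.29 and 9.28 at PND1, and rose 7.61-fold.

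The helicase genes Mcm2 to Mcm7, which license and unwind replication origins, rose less. Mcm5 gained 2.04 ± 0.32 and stood at 11.35, 11.49 and 11.45 at PND4, against 9.21, 9.56 and 9.40 at PND1. Mcm6 gained 1.29, and Pcna, the sliding clamp of DNA polymerase, gained 1.05. Not past the threshold were Ccne1, a cyclin of the entry into DNA synthesis (0.99, adjusted p = 0.088), and Tyms, which makes thymidylate (0.86, adjusted p = 0.12).

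The upstream sequences of 3 mitotic genes and 1 helicase gene are shown because motifs of cell cycle control can be read in them directly. CCAAT boxes are bound by NF-Y, TTTGAA is the core of the element through which the MuvB complexes silence mitotic genes outside division, and TTTGGCGC is a strong site for E2F factors. Each sequence is the 180 bases before the annotated start on the gene's own strand, from RefSeq on GRCm38.p6, 5' to 3', and capitals mark these motifs on either strand. They lie at chr10:69352913-69353092 (minus strand) for Cdk1, chr11:99024190-99024369 (minus strand) for Top2a, chr9:70421555-70421734 (minus strand) for Ccnb2 and chr1:128359706-128359885 (minus strand) for Mcm6.
Cdk1: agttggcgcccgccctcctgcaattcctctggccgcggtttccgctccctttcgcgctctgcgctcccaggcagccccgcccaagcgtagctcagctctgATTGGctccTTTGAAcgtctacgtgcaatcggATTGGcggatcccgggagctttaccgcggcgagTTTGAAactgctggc
Top2a: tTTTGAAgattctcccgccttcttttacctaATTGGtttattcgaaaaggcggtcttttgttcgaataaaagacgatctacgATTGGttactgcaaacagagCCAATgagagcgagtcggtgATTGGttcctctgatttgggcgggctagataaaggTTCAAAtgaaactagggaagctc
Ccnb2: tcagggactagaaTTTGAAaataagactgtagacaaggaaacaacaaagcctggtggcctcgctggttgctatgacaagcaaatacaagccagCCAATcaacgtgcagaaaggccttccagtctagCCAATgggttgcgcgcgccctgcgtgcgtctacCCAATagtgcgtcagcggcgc
Mcm6: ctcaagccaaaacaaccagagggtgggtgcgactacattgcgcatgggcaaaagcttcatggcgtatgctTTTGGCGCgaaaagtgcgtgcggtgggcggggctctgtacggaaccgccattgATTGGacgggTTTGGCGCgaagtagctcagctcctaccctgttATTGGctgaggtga

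Of the 28 cell cycle genes, 23 had an entry in the promoter table, whose windows run from 250 bases before to 50 after the start. CCAAT (or ATTGG) was found in 17 of the 23, against 41.1% of 27025 genes. TTTGAA (or TTCAAA) was found in 9 of the 23, against 20.2% of all genes, namely Mki67, Top2a, Ccnb2, Cdk1, Bub1b, Aurka, Plk1, Cdc20 and Mcm2. TTTGGCGC (or GCGCCAAA) was found in 3 of the 23, all of them helicase genes (Mcm3, Mcm5 and Mcm6), against 0.585% of all genes. TTTCCCGC (or GCGGGAAA), another E2F sequence, was found in Mcm3, Mcm7 and Cdc6, against 1.24% of all genes. A match is a description of the letters and not evidence of binding.

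Inhibitors of the cycle did not move as a group: of 12 measured, 1 rose and 2 fell. Cdkn1a, the p53-responsive inhibitor p21, stood at 10.35, 9.81 and 9.83 at PND4, against 11.93, 11.49 and 11.14 at PND1, and fell by 1.52 ± 0.25 (adjusted p = 1.84e-05). Cdkn1b, the inhibitor p27, fell by 0.52, a call that was lost without PND4 replicate 1 (-0.44, adjusted p = 0.0669). Cdkn2c, the Cdk4 and Cdk6 inhibitor p18, went the other way, at 10.65, 10.60 and 10.46 at PND4, against 8.68, 8.52 and 8.66 at PND1, and rose 3.87-fold (1.95 ± 0.15, adjusted p = 3.13e-13).

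Growth signals changed gene by gene. Mdk, the secreted growth factor midkine, stood at 12.83, 12.87 and 12.87 at PND4, against 9.39, 10.44 and 10.45 at PND1. It rose 6.77-fold (2.76 ± 0.22, adjusted p = 1.17e-12). Igf1, insulin-like growth factor 1, stood at 11.58, 11.55 and 11.66 at PND4, against 10.0025, 10.45 and 10.47 at PND1, a 2.44-fold rise (1.29 ± 0.21). In both genes the replicate 1 array was the lowest of the PND1 samples, and the groups did not overlap. Igf2, the fetal growth factor of the family, stood 0.64 lower at PND4 without passing (adjusted p = 0.2). The binding protein gene Igfbp6 fell by 1.76 ± 0.28, and Igfbp2 stood at 1.54 (adjusted p = 0.082; it passed without PND1 replicate 2, at 2.03).

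Among 7 measured fetal RNA-binding and transcription factors 3 rose and 1 fell, and the same 3 rose in each of the 6 fits without 1 array. The fall was Hmga2 (-0.79), whose call held in 2 of these fits. Mycn, which drives proliferation of lung progenitors, stood at 9.27, 9.52 and 9.10 at PND4, against 7.87, 7.67 and 7.90 at PND1, and rose 2.80-fold (1.48 ± 0.20). Sox11 rose by 1.0 and Sox4 by 0.63. Of 13 imprinted growth genes 1 rose and 2 fell, against 7.29% of all genes that rose and 6.06% that fell. The noncoding RNA Meg3 fell by 1.48 ± 0.30, and its neighbour Dlk1 by 1.5. Of the 3 calls 1, that of Meg3, held in the 6 fits without 1 array and under 4 other scalings. The Dlk1 call was lost without PND4 replicate 2 (-1.16, adjusted p = 0.118) and without PND1 replicate 1 (-1.06, adjusted p = 0.149).

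**Figure D2:**
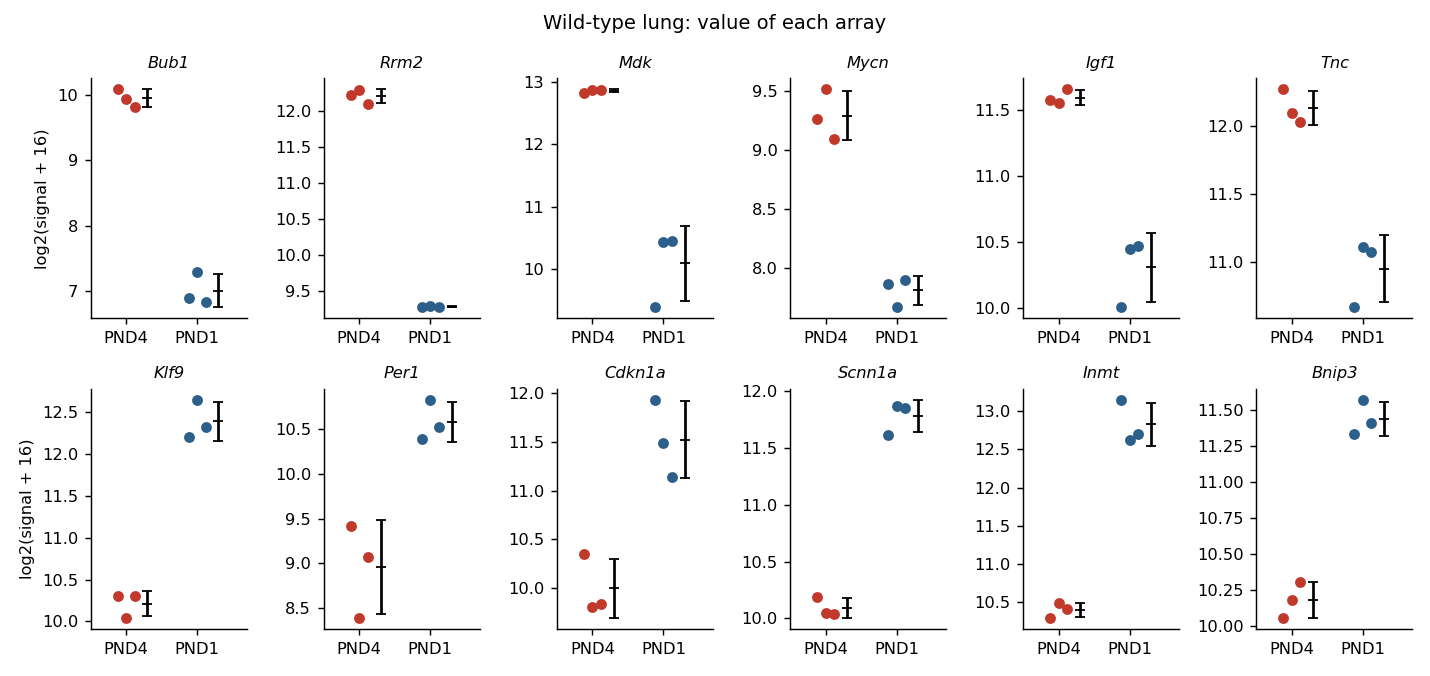
Value of each array (points, log2(signal + 16)) for 12 genes in wild-type lung at PND4 (left) and PND1 (right), with the mean and SD of each group. The vertical axes do not start at 0, and in each panel the 3 values of one day lie apart from the 3 of the other.

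Genes were also named by size, as the 15 largest rises and the 15 largest falls whose groups did not overlap and whose higher group averaged at least 7. Of the rises, 13 were 2.88 to 4.05 with calls that held in the 6 fits without 1 array, and 11 of these are known from cell division (Dlgap5, Shcbp1, Melk, Depdc1a, Cep55, Spc25, Cenpf, Bub1, Rrm2, Spag5 and Cdca5). Prokr2, a receptor for prokineticins, stood at 8.93, 9.12 and 8.59 at PND4, against 4.84, 4.64 and 5.03 at PND1. It rose by 4.05 ± 0.42 (adjusted p = 1.18e-09), and a second probe set of the gene also passed. Its deposited PND1 signals were 7.78, 5.15 and 10.7, below the added constant, so the size of this rise depends on that constant and no fold is given. Slitrk6, a transmembrane protein with leucine-rich repeats, stood at 8.88, 8.95 and 8.44 at PND4, against 5.79, 5.81 and 5.83 at PND1, a 7.72-fold rise. Ucp1, the uncoupling protein of brown fat, stood at 11.30, 7.61 and 8.33 at PND4, against 4.53, 4.52 and 4.22 at PND1 (4.66 ± 1.14). Adipoq, the fat cell hormone adiponectin, stood at 9.89, 6.45 and 8.75 at PND4, against 4.05, 4.59 and 5.54 at PND1 (3.64 ± 1.09). Both followed the brown fat list, which is given by array above, and the part of that tissue in the 2 values was not tested. The Ucp1 call was lost without PND4 replicate 1 (3.55, adjusted p = 0.0711), and the Adipoq call in 4 of the 6 fits (without PND4 replicate 1 or 3 and without PND1 replicate 1 or 2, the highest adjusted p being 0.155).

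The largest falls were of mixed kinds. Klf15, a transcription factor induced by glucocorticoids, stood at 6.25, 6.64 and 6.58 at PND4, against 8.81, 10.11 and 9.79 at PND1, 8.45-fold lower (-3.08 ± 0.42, adjusted p = 5.68e-07). Inmt, an indolethylamine methyltransferase of lung fibroblasts, stood at 10.29, 10.48 and 10.41 at PND4, against 13.15, 12.63 and 12.71 at PND1, 5.41-fold lower (-2.43 ± 0.47). Msln, the mesothelial surface protein mesothelin, stood at 10.21, 10.10 and 10.24 at PND4, against 12.29, 12.29 and 12.26 at PND1 (-2.10 ± 0.25). The 6 values of Msln fell into tight and distant groups. Klf9, another glucocorticoid target, fell by 2.18, Ifitm1, an interferon-inducible membrane protein, by 1.97, Tgm1, a transglutaminase of epithelia, by 1.95, and Sphk1, which makes sphingosine 1-phosphate, by 1.93. Also past the threshold were Tmem213 (-2.46), Bend7 (-2.12), Pitpnm3 (-2.10), Tent5b (-2.03) and Atp6v0a4, a subunit of the proton pump (-1.97).

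Myl2, the ventricular myosin light chain, stood at 6.36, 6.35 and 6.27 at PND4, against 14.43, 10.34 and 8.74 at PND1 (-4.85 ± 1.21). Myh7, a cardiac myosin heavy chain, stood at 9.41, 9.36 and 9.57 at PND4, against 13.21, 10.90 and 10.51 at PND1 (-2.09 ± 0.60). Without PND1 replicate 1, in which heart muscle genes were highest among the PND1 samples, Myl2 stood at -3.22 (adjusted p = 0.114) and Myh7 at -1.26 (adjusted p = 0.257). The Myh7 call was also lost without PND4 replicate 1 or 2. The heart muscle mean of PND4 replicate 3 was 12.47, close to the 12.62 of PND1 replicate 1, while its Myl2 value was 6.27. Apod, a lipid carrier, stood at -2.18 and lost its call without the same PND1 array (-1.41, adjusted p = 0.0655).

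Of 13 glucocorticoid-responsive genes 5 fell and 0 rose, with a median of -0.73, against 6.06% of all genes that fell. Klf9 stood at 10.30, 10.04 and 10.30 at PND4, against 12.20, 12.65 and 12.32 at PND1, 4.52-fold lower (-2.18 ± 0.26, adjusted p = 4.7e-08). Of its 6 other probe sets 5 also fell. Crispld2, a secreted protein of lung mesenchyme, stood at 8.52, 8.26 and 8.43 at PND4, against 10.80, 10.04 and 10.14 at PND1 (-1.93 ± 0.28). Fam107a fell by 1.76, Tsc22d3, the anti-inflammatory leucine zipper protein GILZ, by 1.25, and the metallothionein Mt1 by 0.91. The Mt1 call was lost without PND4 replicate 1 (-0.83, adjusted p = 0.0559) and without PND1 replicate 2 (-0.82, adjusted p = 0.0607). Classic target Fkbp5, a chaperone of the receptor, stood at -0.40 (adjusted p = 0.52) and Zbtb16 at -1.48 (adjusted p = 0.058), Zbtb16 passing without PND1 replicate 1 (-1.86).

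Clock genes fell in 8 of 17, and 0 rose, with a median of -0.62, against 6.06% of all genes that fell. The 8 were output and repressor genes: Per3 (-1.73 ± 0.25), Per1 (-1.62 ± 0.28), Nr1d1 (-1.34 ± 0.38), Per2 (-1.16 ± 0.23), Cry2 (-1.15 ± 0.21), Dbp (-0.94 ± 0.24), Nr1d2 (-0.90 ± 0.20) and Tef (-0.65 ± 0.17). Per1, a repressor of the clock that glucocorticoids also induce, stood at 9.42, 8.39 and 9.07 at PND4, against 10.39, 10.82 and 10.52 at PND1. Its PND4 values were spread more widely than its PND1 values, without overlap. Clock, which encodes an activator of the cycle, stood at 0.26 (adjusted p = 0.41). None of the labels used here states the hour of harvest. The calls of Nr1d1 (without PND4 replicate 1, -1.09, or PND1 replicate 3, -0.98), Dbp (without PND1 replicate 2, -0.80) and Tef (without PND1 replicate 2 or 3, -0.58 each) rested on single arrays.

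The E-box CACGTG, through which the clock acts, was found in the promoter window of 5 of 15 clock genes with an entry (Per1, Cry1, Tef, Ciart and Bhlhe41), against 8.09% of all genes, and TTATGTAA (or TTACATAA), read by Dbp and its relatives, in 1 of 15 (Per3), against 1.11%. ACGTG (or CACGT), the core of the hypoxia response element, was found in 11 of 14 hypoxia response genes with an entry, against 21.8%. The window of Per1 (chr11:69098769-69098948, plus strand, 1 of 2 starts in the table) and that of Bnip3 (chr7:138909507-138909686, minus strand) are shown because both genes fell and the motif can be read in each, in capitals, on the terms given above. In Bnip3 the 2 ACGTG matches, 1 on each strand, overlap and form the letters CACGTG.
Per1: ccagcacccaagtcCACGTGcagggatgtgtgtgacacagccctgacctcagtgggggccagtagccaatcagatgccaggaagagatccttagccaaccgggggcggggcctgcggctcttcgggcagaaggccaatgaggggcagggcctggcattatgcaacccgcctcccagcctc
Bnip3: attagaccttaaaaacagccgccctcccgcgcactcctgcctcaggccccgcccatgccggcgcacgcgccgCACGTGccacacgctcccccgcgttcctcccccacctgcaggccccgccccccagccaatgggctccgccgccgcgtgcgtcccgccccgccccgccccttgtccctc

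Hypoxia response genes fell in 6 of 15, and 0 rose (median -0.44), against 6.06% of all genes that fell. In the fits without 1 array 4 to 5 fell, and without PND1 replicate 1 the list gave 2 rises beside 4 falls. Bnip3, a regulator of mitochondrial removal, stood at 10.06, 10.18 and 10.31 at PND4, against 11.34, 11.57 and 11.41 at PND1, 2.39-fold lower (-1.26 ± 0.15, adjusted p = 1.67e-08). Ddit4, an inhibitor of mTOR that glucocorticoids also induce, stood at 10.56, 10.25 and 10.41 at PND4, against 11.77, 11.69 and 11.70 at PND1 (-1.31 ± 0.19). Ndrg1 fell by 0.96 and Slc2a1, the glucose transporter Glut1, by 0.77. Hk2 (-0.69) kept its call in 0 of the 6 fits without 1 array (-0.78 to -0.59), and Kdm3a (-0.44) in 3 of them, losing it without PND4 replicate 2 or 3 or PND1 replicate 1 (-0.42, -0.41 and -0.36). Vegfa, the growth factor of vessels, stood at -0.41 (adjusted p = 0.27).

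Immediate early genes, which respond to stimuli within minutes, fell in 4 of 16, and 0 rose, against 6.06% of all genes that fell. In the fits without 1 array 3 to 5 fell. Fos stood at 10.54, 10.44 and 10.64 at PND4, against 12.13, 11.56 and 11.53 at PND1 (-1.20 ± 0.27). Atf3 and Zfp36, which destabilizes inflammatory mRNAs, each fell by 0.98. Among 13 acute inflammation genes 3 fell, and 2 to 3 in the fits without 1 array. They were the adhesion molecule Icam1 (-0.87), the NF-kB inhibitor Nfkbia (-0.65) and Socs3 (-0.67, or -0.48 with adjusted p = 0.0532 without PND4 replicate 1).

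**Figure D3:**
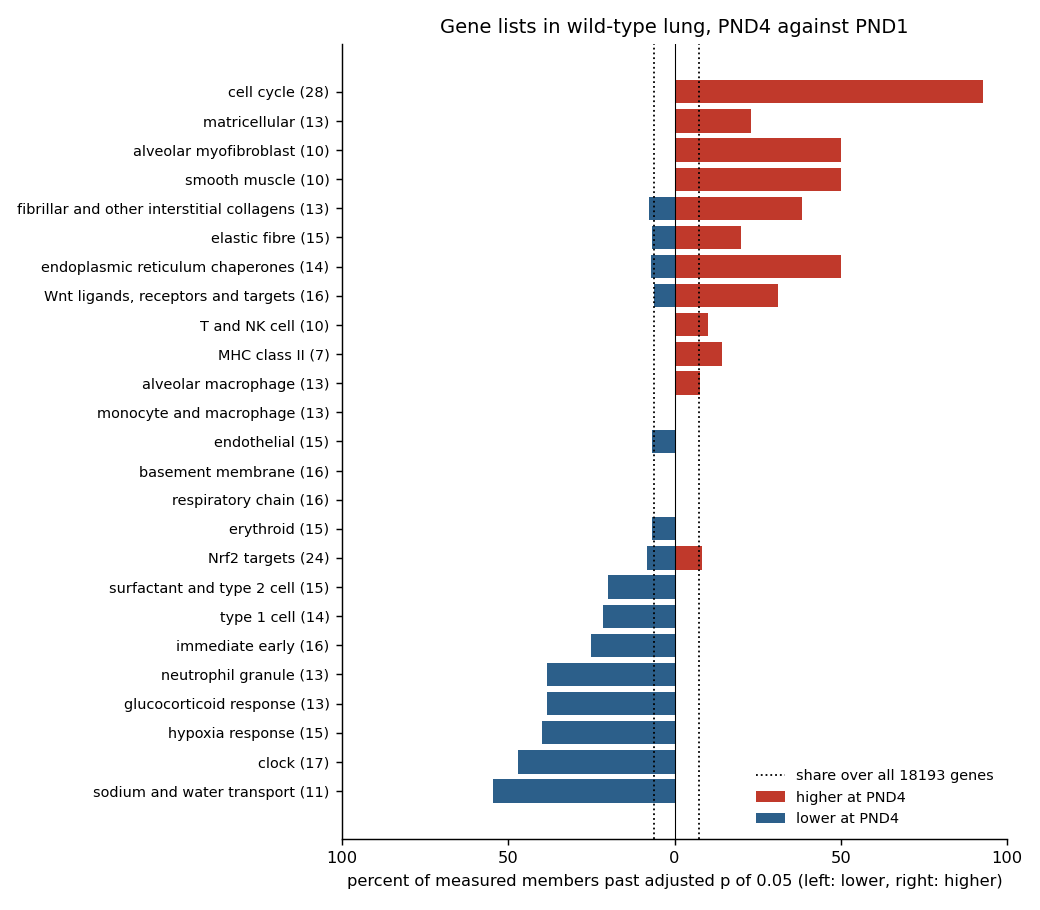
Percent of the measured members of 25 gene lists that passed (horizontal axis), lower at PND4 to the left and higher to the right, with the number of members in brackets. Dotted lines mark the share over all genes, 6.06% lower and 7.29% higher.

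Of 11 genes of sodium and water transport 6 fell and 0 rose (median -0.85), against 6.06% of all genes that fell. In the fits without 1 array 4 to 5 of them fell. Scnn1a, the pore subunit alpha of the epithelial sodium channel, stood at 10.19, 10.04 and 10.04 at PND4, against 11.62, 11.87 and 11.86 at PND1, 3.23-fold lower (-1.69 ± 0.25, adjusted p = 3.53e-06). Atp1b1, the beta subunit of the sodium pump, stood at 12.18, 12.16 and 12.44 at PND4, against 13.93, 13.73 and 13.77 at PND1 (-1.55 ± 0.20). For both genes the groups were separated by more than 1 unit, and 3 of 4 other Atp1b1 probe sets also fell. Nedd4l, the ligase that removes the sodium channel from the membrane, fell by 1.05, Cftr, the chloride channel, by 1.24, and Slc12a2, the chloride importer of the basal side, by 0.68. Cftr lost its call without PND4 replicate 3 (-1.11, adjusted p = 0.0544). Scnn1b, the beta subunit (-0.85), passed in 0 of the 6 fits without 1 array (-0.92 to -0.82). Aqp5, the apical water channel, stood at 11.15, 11.10 and 10.93 at PND4, against 12.06, 12.10 and 12.01 at PND1, a separation that did not pass (-1.0, adjusted p = 0.11). It did pass with only the 6 arrays compared and in the fit to the 24 arrays of PND1 to PND4.

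Surfactant and type 2 cell genes fell in 3 of 15 with 0 rises (median -0.55), and type 1 cell genes in 3 of 14 with 0 rises (median -0.47). Muc1, a mucin of the apical membrane, fell by 0.90, Cebpa, a transcription factor of type 2 cell maturation, by 0.85, and Abca3, the lipid pump of lamellar bodies, by 0.69. Abca3 kept the call in 1 of the 6 fits without 1 array (without PND4 replicate 1), the others lying between -0.71 and -0.61. The surfactant protein genes Sftpd and Sftpa1 did not pass in the fit to all arrays and did pass in others. Sftpd stood at 12.98, 12.97 and 12.51 at PND4, against 14.24, 13.95 and 13.84 at PND1 (-1.19, adjusted p = 0.055), and Sftpa1 at -0.71 (adjusted p = 0.28). With only the 6 arrays compared, the limma adjusted p was 0.00179 for Sftpd and 0.00118 for Sftpa1. Of the type 1 cell genes Clic5 fell by 1.19 and Krt7 by 0.95, while Gprc5a (-0.94) kept its call in 0 of the 6 fits (-0.99 to -0.90). Ager stood at -0.30 (adjusted p = 0.72). It passed with only the 6 arrays compared and in the fit to the 24 arrays of PND1 to PND4. In 12 of the 15 type 2 cell genes and 11 of the 14 type 1 cell genes the 3 PND4 values lay below the 3 PND1 values, against 15.9% of all genes. With the fit restricted to the 24 arrays of PND1 to PND4, 8 type 2 cell genes and 10 type 1 cell genes fell. The counts thus depended on which arrays were in the fit, and the cause of this shift was not tested.

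Some mesenchymal contractile genes rose. Of 10 smooth muscle genes 5 rose and 0 fell (median 0.71), against 7.29% of all genes that rose. In each of the 6 fits without 1 array 4 of them rose. Acta2, smooth muscle actin, stood at 14.17, 14.19 and 14.01 at PND4, against 13.16, 13.39 and 13.29 at PND1 (0.84 ± 0.18). Its call was lost with array medians subtracted (limma adjusted p = 0.091). Myh11, the smooth muscle myosin, stood at 10.27, 10.49 and 10.16 at PND4, against 8.68, 9.25 and 9.37 at PND1 (1.20 ± 0.28). Synpo2 rose by 1.51 and Smtn by 0.90. Of 10 alveolar myofibroblast genes 5 rose and 0 fell with the 6 arrays, but 2 rose in 5 of the fits without 1 array and 3 in the fit without PND4 replicate 2. Wnt5a, a secreted Wnt ligand, kept its call in all of these and under 4 other scalings, the only 1 of the 5 to do so. It stood at 10.05, 10.09 and 9.85 at PND4, against 8.48, 9.04 and 9.15 at PND1 (1.11 ± 0.23). Tagln (0.60), Tgfbi (0.52) and Lgr6 (0.65) kept theirs in 0, 0 and 1 of the 6 fits, in ranges of 0.56 to 0.64, 0.45 to 0.59 and 0.53 to 0.74. The smooth muscle and myofibroblast lists overlap, and the Tagln call counts in both. Pdgfra, the receptor that marks the myofibroblast lineage, stood at 0.19 (adjusted p = 0.74).

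Matrix genes moved in both directions. Tnc, tenascin C, stood at 12.27, 12.10 and 12.02 at PND4, against 10.67, 11.11 and 11.08 at PND1, and rose 2.26-fold (1.18 ± 0.21). Of 15 elastic fibre genes 3 rose and 1 fell, with 1 to 3 rises in the fits without 1 array (1 without PND1 replicate 1). Fbln1, a fibulin, stood at 10.96, 10.92 and 11.30 at PND4, against 9.09, 9.75 and 9.99 at PND1 (1.45 ± 0.23), whereas elastin itself, Eln, stood at 13.75, 13.80 and 13.90 at PND4, against 14.11, 14.17 and 14.22 at PND1 without passing (-0.35, adjusted p = 0.41, or 0.0193 with only the 6 arrays compared). Lox, which cross-links elastin and collagen, fell by 0.64 with all arrays, and its call was lost without any of the 3 PND4 arrays (-0.66 to -0.63) and without PND1 replicate 1 (-0.53). Of 13 interstitial collagens 5 rose and 1 fell. The fall, Col6a1 (-0.53), held in 0 of the 6 fits without 1 array, and the rise of Col1a2 (0.37) in 1 of them. Col16a1 rose by 1.05, Col15a1 by 1.01, Col14a1 by 1.0 and Col3a1 by 0.41, while Col1a1 stood at 0.64 (adjusted p = 0.11). The Col3a1 call was lost under 3 of 4 other scalings. Of 16 basement membrane genes 0 passed. Timp3, an inhibitor of matrix proteases, fell by 1.08 ± 0.19.

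A minority of the genes passed in each signalling list. Of 16 Wnt pathway genes 5 rose and 1 fell, and 3 to 4 rose in the fits without 1 array. Wif1, a secreted Wnt inhibitor, stood at 10.81, 11.05 and 10.73 at PND4, against 8.82, 9.38 and 9.29 at PND1, and rose 3.26-fold (1.7 ± 0.28). Wnt11 rose by 0.83. Of 15 genes of the Shh, Bmp and Fgf10 signals 2 rose: Bmp4 (1.02 ± 0.20), a growth factor of distal lung, and Smo (0.71 ± 0.12), the hedgehog signal transducer. Of 11 Tgfb pathway genes 2 rose and 2 fell, and of 13 retinoid genes 1 rose and 2 fell. Of 16 Pdgf, Fgf and Vegf genes of septation 1 rose and 1 fell, near the shares of all genes (7.29% and 6.06%). Through the 6 fits without 1 array and 4 other scalings, 2 of 4 Tgfb calls held. Of the retinoid calls 1 of 3 did, and of the septation calls 0 of 2. Tgfb3 rose by 1.09 ± 0.22 and the co-receptor Tgfbr3 fell by 0.67 ± 0.13. Of the retinoid genes Dhrs3, which reduces retinal, fell by 1.0 ± 0.14.

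Vessel genes changed little in count. Of 15 endothelial genes 1 fell, Emcn (-0.83 ± 0.18), a sialomucin of capillaries and veins. Pecam1 and Cdh5, which join endothelial cells, stood at -0.19 (adjusted p = 0.65) and 0.30 (adjusted p = 0.54). Ednrb, an endothelin receptor, was the 1 of 9 alveolar capillary genes that fell (-0.75 ± 0.19). Lyve1, a hyaluronan receptor of lymphatic vessels and some macrophages, stood at 12.13, 11.96 and 11.88 at PND4, against 13.14, 13.19 and 13.24 at PND1 (-1.20 ± 0.23). Of 10 pericyte genes 1 rose and 2 fell (median 0.08), against 7.29% of all genes that rose and 6.06% that fell. Both falls were subunit genes of a potassium channel, Abcc9 (-1.29 ± 0.21) and Kcnj8 (-0.68 ± 0.15). The rise was Postn, the matrix protein periostin (0.77), whose call held in 1 of the 6 fits without 1 array (0.60 to 0.89).

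Blood and immune cell genes moved mostly in the neutrophil list. Of 13 neutrophil granule genes 5 fell and 0 rose (median -1.06), against 6.06% of all genes that fell. The mean of the 13 genes was 7.96, 7.88 and 8.25 in the PND4 samples, against 8.66, 9.42 and 9.06 in the PND1 samples. On each day this mean was highest in the sample with the highest liver genes (PND4 replicate 3 and PND1 replicate 2). Whether neutrophil and liver transcripts shared a source was not tested. Camp, the antimicrobial cathelicidin, stood at 7.36, 7.24 and 8.70 at PND4, against 8.72, 10.34 and 9.86 at PND1 (-1.88 ± 0.40, adjusted p = 0.000888). Ngp fell by 1.80 ± 0.43 and Mmp8, a collagenase, by 1.19 ± 0.29. The calls of the calprotectin genes S100a8 (-1.48) and S100a9 (-1.47) held in 1 of the 6 fits each, the other values lying between -1.64 and -1.29 and between -1.55 and -1.26, and the list kept 3 calls without PND1 replicate 2 or 3 or PND4 replicate 1 or 2. Mpo, the enzyme of immature granules, stood at -1.0 (adjusted p = 0.22).

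Of 13 monocyte and macrophage genes 0 passed in either direction, and of 13 alveolar macrophage genes 1 did. Siglecf, a lectin of alveolar macrophages and eosinophils, rose by 1.14 with all arrays and in 1 of the 6 fits without 1 array (0.96 to 1.48), while Chil3 stood at -1.49 (adjusted p = 0.082). All 7 MHC class II genes stood above 0, with 1 call, Cd74, the invariant chain (1.53 ± 0.45). That call was lost without PND4 replicate 1 or 2 or PND1 replicate 1 (1.49, 1.54 and 1.42). H2-Aa stood at 10.97, 10.94 and 10.81 at PND4, against 9.34, 9.31 and 9.48 at PND1, yet missed the threshold (1.53, adjusted p = 0.095). It passed with only the 6 arrays compared and in the fit to the 24 arrays of PND1 to PND4. The 10 T and NK cell genes had a median of 0.92 and also stood above 0 throughout, with Cd3g at 1.64 (adjusted p = 0.34). They were dim, with list means of 6.269 to 6.662 in the PND4 arrays and 5.397 to 5.725 in the PND1 arrays. These lie below the mean of 7 asked of genes named by size. The 1 call, Klrd1 (1.25, limma adjusted p = 0.0497), held in 0 of the 6 fits without 1 array. Hdc, the histamine-forming enzyme of mast cells and basophils, rose by 1.5 ± 0.33. Of 15 erythroid genes 0 rose and 1 fell, near the 6.06% of all genes that fell, and of 7 B cell genes 0 passed.

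Genes of protein folding and antioxidant defence gave calls in both directions, and genes of lipid synthesis gave falls only. Endoplasmic reticulum chaperones rose in 7 of 14, by 0.31 to 0.77, and Herpud1, which serves protein degradation there, fell by 1.24 ± 0.16. The count of rises was 4 without PND1 replicate 1 and 5 without PND4 replicate 1, and 2 to 6 under the other scalings. Hsp90b1 (0.51), Pdia6 (0.65) and Sdf2l1 (0.77) kept their calls in the 6 fits without 1 array. With array medians subtracted Hsp90b1 lost its call (limma adjusted p = 0.0724). Of the lipid genes, Insig1, a brake of sterol synthesis (-0.71), the sterol cyclase Lss (-1.01) and the fatty acid elongase Elovl5 (-0.63) fell. Of 24 measured Nrf2 target genes 2 rose and 2 fell in wild-type lung, against 7.29% of all genes that rose and 6.06% that fell. Aox3, an aldehyde oxidase, stood at -1.09 ± 0.26, Ugdh at 0.42 ± 0.09 and Nqo1 at -0.29 (adjusted p = 0.48). Of the 4 calls 1 held in the 6 fits without 1 array and the 4 other scalings. Ugdh lost its call with the values as deposited and with array medians subtracted. Prdx4, a peroxiredoxin of the secretory pathway, stood at 11.81, 11.86 and 11.87 at PND4, against 10.82, 10.83 and 10.81 at PND1 and rose by 1.03 ± 0.12 (adjusted p = 1.58e-08). Of 16 respiratory chain genes 0 passed.

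The days between showed how the changes were spread over time. Bub1 averaged 7.01, 8.49, 9.56 and 9.95 at PND1, PND2, PND3 and PND4, each day above the one before. Mdk averaged 10.09, 12.09, 12.85 and 12.85 over the same days, and Igf1 averaged 10.31, 11.47, 11.45 and 11.60, so that both stood near their PND4 level earlier. Klf9 averaged 12.39, 10.46, 10.20 and 10.21, Scnn1a 11.78, 10.15, 10.03 and 10.09, and Per1 10.58, 8.33, 8.56 and 8.96. Inmt averaged 12.83, 11.45, 10.38 and 10.39. The PND1 lungs thus stood apart from the 3 later days in Klf9, Scnn1a and Per1. The mean of the 28 cell cycle genes was 8.19 to 8.30 at PND1, 9.06 to 9.71 at PND2, 10.03 to 10.26 at PND3 and 10.32 to 10.36 at PND4, and its largest step was also the one after PND1.

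**Figure D4:**
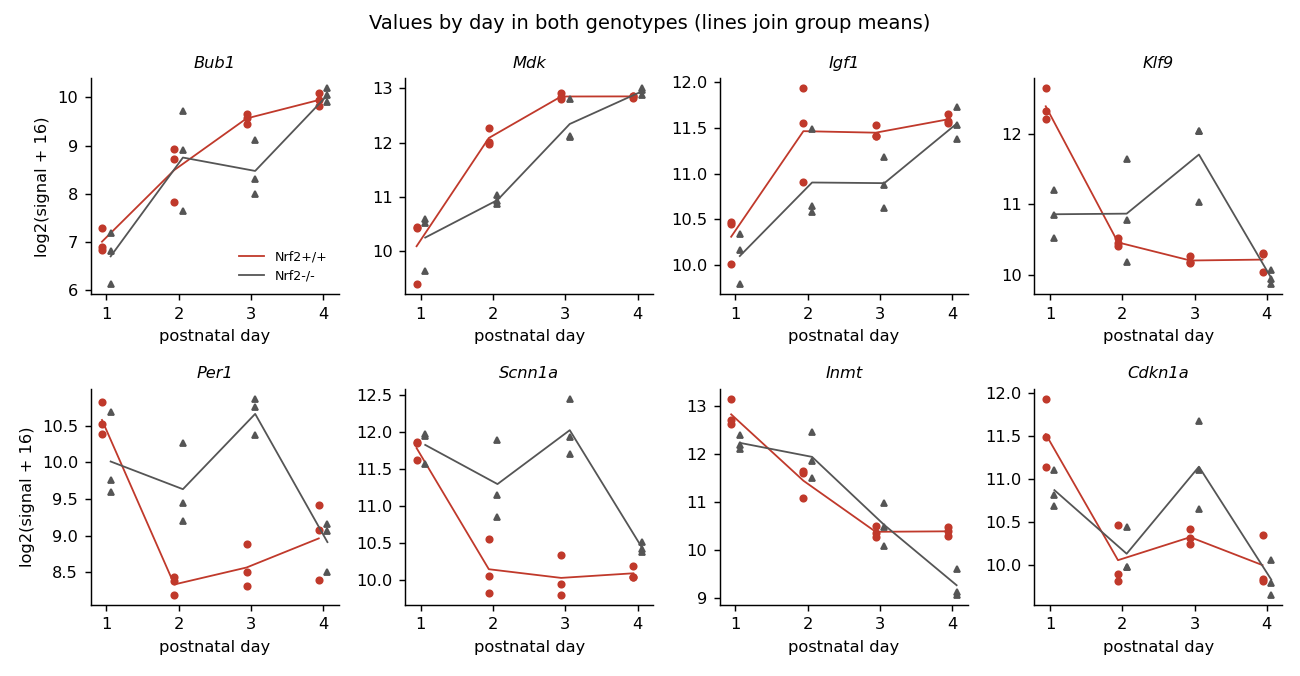
Values by array (points) and group means (lines) of 8 genes over PND1 to PND4 in Nrf2+/+ (circles) and Nrf2-/- lung (triangles), log2(signal + 16). In wild type Klf9, Per1, Scnn1a and Cdkn1a are near their PND4 level at PND2, while the means of Bub1 are higher on each later day.

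The step from PND2 to PND3 used 6 other wild-type arrays. It passed for 137 of 18193 genes (0.753%), 83 higher (0.456%) and 54 lower (0.297%). With only the arrays of the step in the fit, 0 probe sets passed by limma (5371 at an unadjusted p under 0.05). Of the probe sets called, 148 were higher and 116 lower, against 76 and 8 with the values as deposited, 401 and 27 with array medians subtracted and 74 and 104 with a common trimmed mean, so the direction of this step depended on the scaling. Of the 1326 genes that rose between PND1 and PND4, 1142 (86.1%) were also higher at PND3 than at PND2, with a median difference of 0.27. Of the 1102 that fell, 798 (72.4%) were lower at PND3 than at PND2 (median -0.12). Over all genes 59.4% had the same sign in both steps. The 28 cell cycle genes had a median of 0.77 in this step, with 0 past the threshold, while the clock list had a median of 0.03 and the glucocorticoid list one of -0.12. The counts of this step rested on single arrays: of 264 probe sets (0.586%) with all arrays, 36 passed without PND3 replicate 1, 148 without replicate 2 and 44 without replicate 3, and 134 without PND2 replicate 1 and 79 without replicate 2.

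Nrf2-/- lung over the same days was compared last, with other animals and arrays. There 1981 genes (10.9%) passed, 893 higher (4.91%) and 1088 lower (5.98%). Of the 1326 genes that rose in wild type, 1253 (94.5%) were also higher at PND4 in Nrf2-/- lung, and of the 1102 that fell 1063 (96.5%) were lower, against 67.8% of all genes with the same sign in both genotypes. The genes that rose in both numbered 618, which is 46.6% of the wild-type rises and 69.2% of the Nrf2-/- rises, and those that fell in both 557, or 50.5% and 51.2%. Of the 15 largest wild-type rises 13 also rose in Nrf2-/- lung, and of the 15 largest falls 10 also fell. Cell cycle genes rose in 26 of 28 in wild type and in 28 of 28 in Nrf2-/- lung, with medians of 2.37 and 2.32. Glucocorticoid-responsive genes fell in 5 of 13 in wild type and 6 of 13 in Nrf2-/- lung, clock genes in 8 and 3 of 17 (medians -0.62 and -0.22), and neutrophil granule genes in 5 and 0 of 13 (medians -1.06 and -0.49).

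Whether the step itself differed between genotypes was tested as the wild-type step minus the Nrf2-/- step. Of 45037 probe sets 28 (0.0622%) passed, and 3568 (7.92%) had an unadjusted p under 0.05. Of the genes 8 passed (0.044%), and 0 of the members of the 61 gene lists did. Klf9 fell by 2.18 in wild type and by 0.90 in Nrf2-/- lung, and the difference between the steps did not pass (-1.27, adjusted p = 0.26). Per3 gave -1.73 in wild type and -0.61 in Nrf2-/- lung, and here too the difference did not pass (-1.11, adjusted p = 0.31). A p that misses the threshold does not show that the steps were equal.

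**Figure D5:**
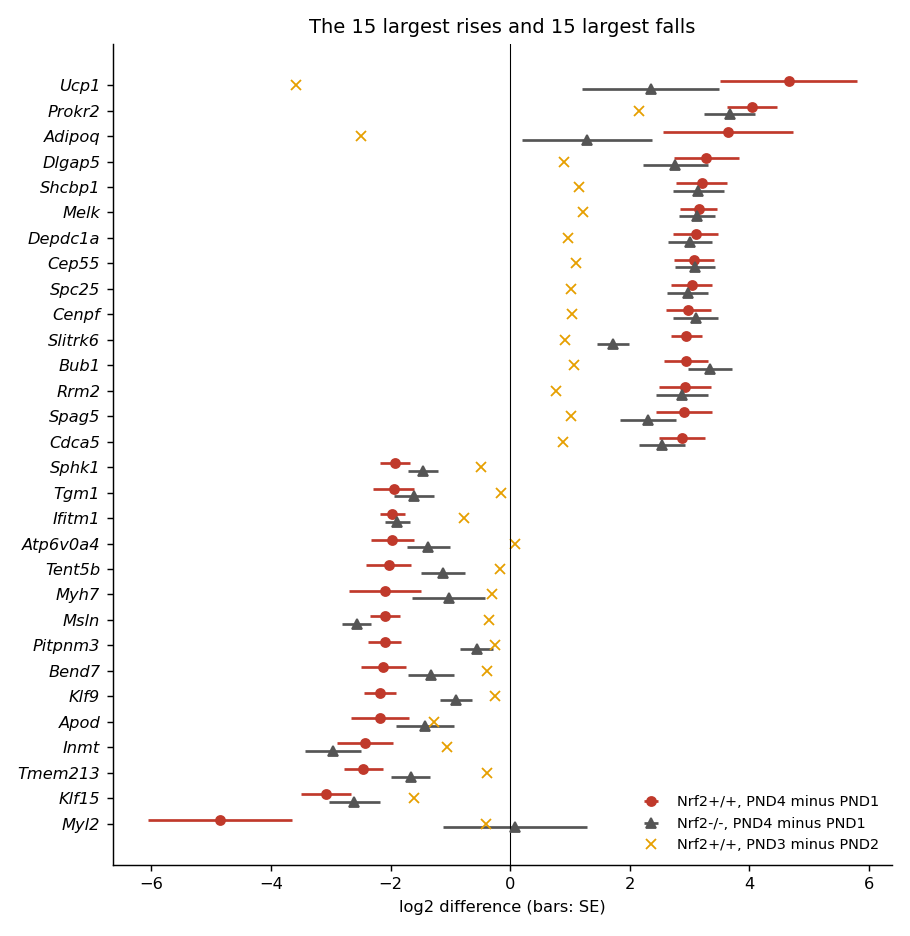
Log2 differences of the 15 largest rises and 15 largest falls in wild-type lung (circles, with SE), the same step in Nrf2-/- lung (triangles, with SE) and the wild-type step from PND2 to PND3 (crosses). Of the 15 rises 13, and of the 15 falls 14, have the same sign between PND2 and PND3, Ucp1 and Adipoq being the rises that do not.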

How the data were processed

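Each sample was hybridised to 1 Affymetrix mouse array. The deposited values were linear signal intensities per probe set, made by the authors with GCOS, a tool listed in the submitters' processing notes. Algorithm, version and scaling are not given in the sources used here. Of 45101 probe sets 64 controls were left out. Intensities of all 66 arrays were quantile normalized and turned into log2(value + 16). limma 3.58.1 (R 4.3.3) fitted 22 group means with an intensity trend (44 residual degrees of freedom), and p-values were two-sided and adjusted by Benjamini-Hochberg over 45037 probe sets, with a threshold of 0.05. The SE comes from the spread pooled over the 22 groups, and 3 arrays per group limit the precision. The script was tested on simulated data. An exact permutation test of 3 against 3 cannot go below p = 0.1 and was not used. The probe set with the highest mean stood for a gene (34945 probe sets had 1 symbol, 932 several and 9160 none). Named were the 15 largest rises and falls (no overlap, mean of at least 7 in the higher group, predicted loci and sex-linked genes passed over), up to 6 genotype differences and members of 61 lists (723 of 789 entries measured). Members and lists were chosen with earlier results of these data known. The labels describe replicates as separate samples. Same-numbered PND4 and PND1 samples did not deviate together (r = -0.019, -0.162 and -0.142), so numbers were not used as pairs. Alternatives covered scaling, pseudocount, filter, variance model, samples in the fit, covariates and left-out arrays. Figures were drawn with matplotlib 3.10.9.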

Additional observations from a re-analysis of the deposited data

Results flagged for a closer look

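Of the genes whose wild-type step differed from the Nrf2-/- step, 5 met the rule for naming, each by the test of the difference itself. Zfp719, a zinc finger gene, stood at 8.27, 8.37 and 7.96 in wild-type PND4 lung, against 7.55, 7.05 and 6.45 in wild-type PND1 lung, and at 8.03, 7.97 and 8.16 in Nrf2-/- PND4 lung, against 8.14, 8.19 and 8.07 in Nrf2-/- PND1 lung. The difference between the steps was 1.27 ± 0.24 (SE, limma adjusted p = 0.0223), and the wild-type PND1 values were the low ones. Clk4, a kinase of splicing factors, differed by -0.94 ± 0.21 (adjusted p = 0.0499), with steps of -1.02 in wild type and -0.08 in Nrf2-/- lung. Ppdpf differed by 0.58 ± 0.13 (adjusted p = 0.0499), with steps of 0.05 in wild type and -0.53 in Nrf2-/- lung. Grcc10 differed by 0.51 ± 0.11 (adjusted p = 0.0387), with steps of 0.28 in wild type and -0.24 in Nrf2-/- lung. Qk, an RNA-binding protein of splicing, differed by -0.48 ± 0.10 (adjusted p = 0.0499), with steps of -0.22 in wild type and 0.25 in Nrf2-/- lung. Each of the 5 calls was lost under several of the alternatives and in at least 6 of the 12 fits without 1 array. Xist was high in 3 of 3 Nrf2-/- PND4 samples and in 1 of 3 Nrf2-/- PND1 samples, against 1 of 3 and 2 of 3 in wild type, so the sexes were unevenly spread over these groups. With the Xist level as a covariate all 5 calls were lost.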

How the results depend on the processing

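The step from PND1 to PND4 passed for 4406 probe sets, and for 2565 with the values as deposited, 2716 with array medians subtracted, 2767 with a replicate block and only the arrays compared, 2710 with 1 probe set per gene, and 3123 to 3673 without 1 array. The split was 51.4% higher, against 60.1% as deposited and 40.7% with medians subtracted. The step from PND2 to PND3 (264) gave 84 as deposited, 428 with medians subtracted, 475 among probe sets with a mean of at least 7, 959 with array weights, 174 with 1 probe set per gene, 36 to 289 without 1 array, and 0 by limma with only the arrays compared (5371 at an unadjusted p under 0.05) and 0 with the block added to that fit (5106). Its share of higher calls was 56.1%, against 90.5%, 93.7% and 41.6% under other scalings. The difference between genotypes (28) gave 4 as deposited, 2 with medians subtracted, 16 with a trimmed mean of 500, 5 with quantile normalization and fit over 24 arrays, 68 with array weights, 5 with the fit over 24 arrays, 12 with Xist as a covariate, 10 with only the arrays compared, 4 with a replicate block in that fit, 2 with 1 probe set per gene, and 6 to 34 without 1 array. The cause of these shifts was not tested. The replicate block in the fit to all arrays gave 4414, 270 and 28 calls for these comparisons in that order; the labels give the numbers no pairing. For 211 named results, 3083 of 3362 other settings kept direction and side of the threshold, 228 lost the call, 51 gained one and 0 changed sign; without 1 array 1032 of 1266 kept both, 232 lost the call and 2 gained one.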
